A study of Mus musculus with 9 samples.

Results

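The amino acid transporter genes of the mouse kidney are described here across 9 RNA-seq libraries. Members were all gene symbols of the solute carrier families Slc1, Slc3, Slc6, Slc7, Slc36, Slc38 and Slc43, which gave 65 of the 26139 genes in the table. Of these, 44 reached 0.1 FPKM (fragments per kilobase of gene length, scaled to the counted reads of the library) in at least 3 libraries and are described, and 21 did not. Members with at least 1 FPKM in at least 3 libraries entered the test across all genes, which were 34 of the 44. The choice by family name also takes in genes that carry no amino acid. Among them are Slc43a3 (a nucleobase carrier), Slc6a8 (creatine), Slc6a4 (serotonin) and Slc7a6os, which lies on the opposite strand of Slc7a6 and is no carrier.

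Whole kidneys came from 3 groups of 3 libraries. The first group was wild-type C57/BL6 mice given saline by gavage (WT). The second was Itgam-IRES-hCD89 mice, labelled as IgA nephropathy (IgAN), also given saline. The third was mice of that same genotype gavaged each day for 5 months with GQYS, the Gui-qi-yi-shen granules of the study's title (GQYS). In this genotype the human IgA receptor CD89 is linked to Itgam, a gene of myeloid cells, so both the IgAN and the GQYS group carry the allele and only WT does not. The labels state neither zygosity, age nor sex, nor if each library stands for its own mouse. Each p therefore measures the spread between libraries, which may be partly technical.

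The kidney filters amino acids freely and takes nearly all of them back in the proximal tubule. Carriers in the brush border move them from the lumen into the cell, mostly with sodium, and a different set on the basolateral side lets them out to the blood. Several carriers work only as heterodimers, in which a heavy chain (Slc3a1 or Slc3a2) brings a light chain of the Slc7 family to the membrane; other members feed the cell itself, empty the lysosome or bring in osmolytes.

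Libraries held 30564947 to 38161564 counted reads, and proximal tubule genes were abundant in all of them, with Slc34a1 (the sodium-phosphate carrier) at 1437 to 1889 FPKM. Mitochondrially encoded genes took 18.6% of reads in WT replicate 1 and 7.81 to 13.3% elsewhere. That library held the lowest of the 9 values for 11 of the 34 tested members and the highest for 0. IgAN replicate 1 stood apart in injury genes, with Havcr1 at 43.8 FPKM against at most 1.79 in the other 8 libraries and Lcn2 at 24 against at most 5.68. Adrenal markers were near 0 (summed 0.168 to 0.344 FPKM), and fat genes other than Car3 were above 1 FPKM in WT replicate 3 alone, where Cfd was at 11.4.

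No member passed the test in any comparison. With limma on log2(FPKM + 1) over all 9 libraries and a Benjamini-Hochberg adjusted p under 0.05, 0 of 34 members were called in IgAN against WT, where 0.353% of all tested genes were (0.301% higher and 0.0516% lower). The count was 0 in GQYS against IgAN (0.198% of all tested genes, 0.0344% higher and 0.164% lower) and 0 in GQYS against WT (0% of all tested genes), and voom on reads recovered from the FPKM steps also called 0 in each. At an unadjusted p under 0.05, limma gave 6 members in IgAN against WT, 17.6% of those tested against 10.3% of all tested genes. Of these, 5 were higher (6.97% of all tested genes) and 1 lower (3.37%). It gave 8 in GQYS against IgAN (23.5%, against 10.4%), of which 4 were higher (5.53%) and 4 lower (4.9%). GQYS against WT gave 5 (14.7%, against 4.43%), of which 4 were higher (3.33%) and 1 lower (1.1%). Members differed in both directions: the median log2 difference was 0.03, 0.00 and 0.03 in these comparisons, and that of all tested genes 0.02, 0.01 and 0.03. The median size of the difference, regardless of direction, was 0.15, 0.21 and 0.12 for members and 0.12, 0.12 and 0.09 for all tested genes. IgAN libraries serve in both of the first comparisons, so their differences are tied and are given side by side only.

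**Figure D1:**
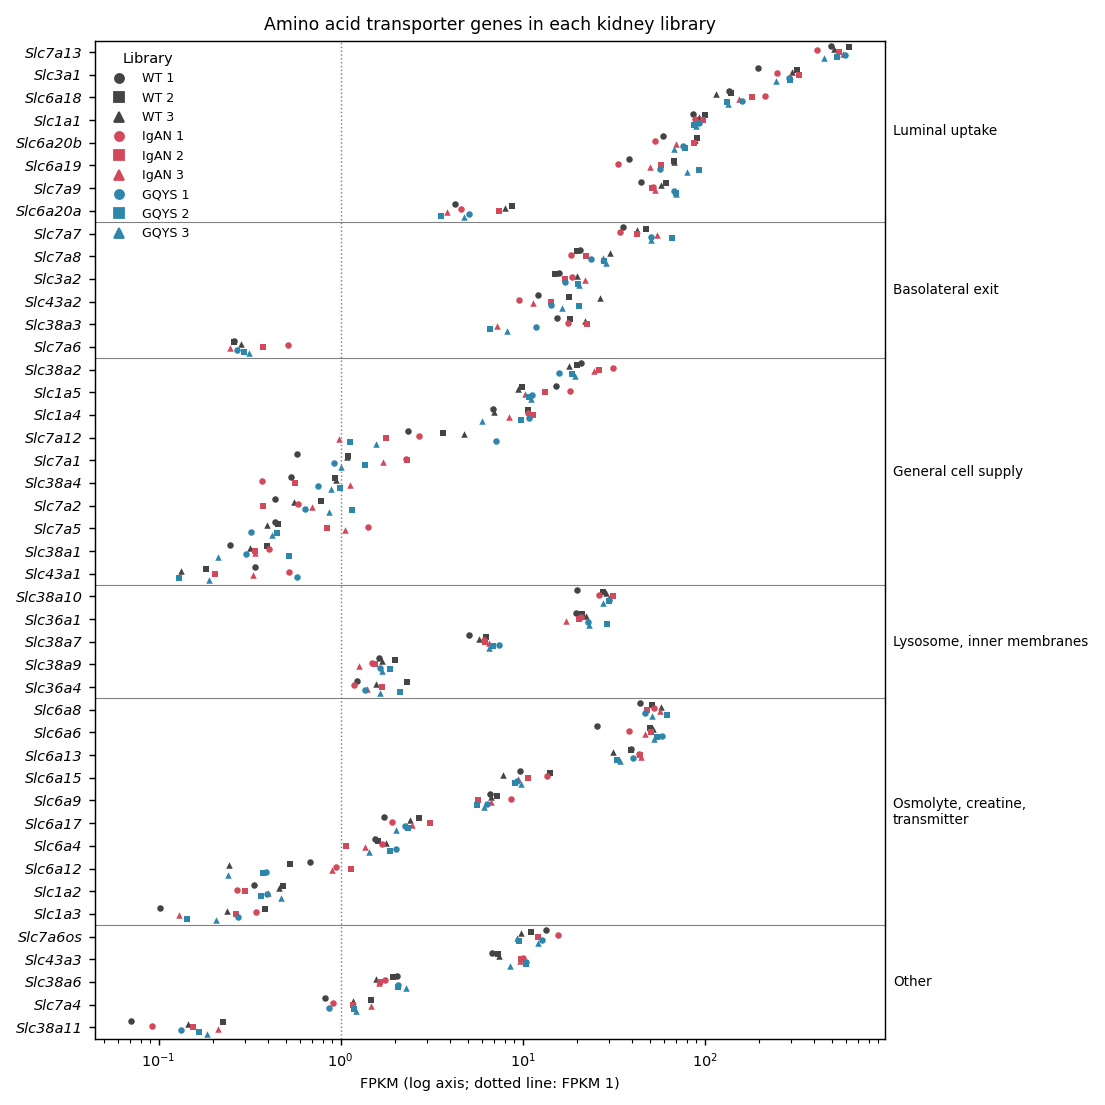
FPKM (log axis) of the 44 described members in each of the 9 libraries, ordered by role and by mean level; colour marks the group, symbol the replicate, and the dotted line 1 FPKM. The luminal carriers run from Slc7a13, the highest member at 413 to 624 FPKM, down to Slc6a20a at 3.56 to 8.75. Under the line lie mostly 10 members, among them Slc7a5 and Slc6a12.

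Luminal carriers dominated the family. The 8 described ones held 72.8 to 77.3% of the summed FPKM of described members in every library, a scale that divides by gene length and so allows levels of different genes to be set side by side. Slc7a13, a light chain of the last proximal segment (S3) that pairs with Slc3a1 to take up acidic amino acids and cystine, was the highest member and ranked 90 among all genes by mean FPKM. It stood at 498, 624 and 517 FPKM in WT, at 413, 545 and 574 in IgAN and at 588, 532 and 454 in GQYS. The groups overlapped fully, and its log2 difference in IgAN against WT was -0.10, with a 95% interval of -0.46 to 0.25. Of the other S3 markers, 6 of 6 had lower mean log2 values in GQYS than in IgAN (median -0.45). At an unadjusted p under 0.05, 3 of 6 were lower (4.9% of all tested genes), and limma called 0. Their summed FPKM was 2770 to 3373 in WT, 2884 to 3545 in IgAN and 2260 to 3027 in GQYS. Markers of the earlier proximal segments (S1 and S2) had 6 of 7 higher in the same comparison (median 0.11, 0 at an unadjusted p under 0.05), with summed FPKM of 2350 to 3280, 2421 to 2843 and 2738 to 3070. Podocyte markers had 5 of 5 higher (median 0.14, 0 at that p) and endothelial markers 5 of 5 higher (median 0.23, 2 at that p). Stroma markers had 4 of 4 lower (median -0.39, 0 at that p). In IgAN against WT, the stroma markers had 4 of 4 higher (median 0.49, 2 at that p), but the library values overlapped for each of them. Their summed FPKM was 37.5, 30.4 and 26.1 in WT and 59.4, 32.1 and 35.8 in IgAN, so replicate 1 of IgAN stood out. In GQYS it was 30.6, 28.4 and 33.6. Limma called 0 in each of these lists. All tested genes higher at that p were 5.53% in GQYS against IgAN and 6.97% in IgAN against WT. By the direction of the mean log2 value alone, 51.6% of all tested genes were higher and 48.4% lower in GQYS against IgAN. In IgAN against WT, 54.7% were higher. The part of tissue makeup in the values of the carriers was not tested. In whole-kidney RNA, fewer cells of a type and less RNA per cell cannot be told apart.

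Slc3a1, the heavy chain, measured 197, 324 and 301 FPKM in WT, 250, 329 and 293 in IgAN and 292, 295 and 247 in GQYS, again with overlapping groups and the lowest value in WT replicate 1. Its other partner Slc7a9, the light chain for cystine and basic amino acids, was at 44.7, 61.2 and 57.9 FPKM in WT, 52.3, 51.2 and 53.7 in IgAN and 67.7, 70.0 and 69.4 in GQYS. All GQYS libraries lay above all others for Slc7a9, whose group means were 54.6 ± 8.73 (SD, n = 3), 52.4 ± 1.24 and 69.0 ± 1.17 FPKM. The log2 difference was 0.39 (SE 0.12, limma adjusted p = 0.268) in GQYS against IgAN and 0.34 (SE 0.12, limma adjusted p = 0.999) in GQYS against WT. Over 22 alternative analyses its adjusted p in GQYS against IgAN ran from 0.0271 to 0.713 and passed the threshold in 2, 1 that weighted libraries by quality and 1 with the mitochondrial share of reads as a term.

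Slc6a19 and Slc6a18 carry neutral amino acids and both need collectrin (Cltrn) to reach the brush border. Slc6a19, the main neutral carrier and the gene of Hartnup disorder, was at 38.4, 67.6 and 68.3 FPKM in WT, 33.6, 57.3 and 50.3 in IgAN and 56.6, 92.8 and 80.5 in GQYS. The IgAN and GQYS ranges overlapped only between IgAN replicate 2 and GQYS replicate 1. The log2 difference in GQYS against IgAN was 0.70 (SE 0.27, limma unadjusted p = 0.029, adjusted p = 0.403). Over 22 alternatives that adjusted p ran from 0.0295 to 0.872 and passed the threshold in 2, of which 1 had the mitochondrial share of reads as a term (log2 difference 0.88, adjusted p = 0.0404). Slc6a18, which prefers glycine and alanine, showed another order: 136, 140 and 116 FPKM in WT, 214, 182 and 154 in IgAN and 160, 133 and 135 in GQYS. All 3 IgAN libraries exceeded all WT libraries for Slc6a18, with a log2 difference of 0.48 (SE 0.14, limma adjusted p = 0.240, 0.0561 to 0.561 over 22 alternatives), and GQYS against IgAN gave -0.35 (SE 0.14, limma adjusted p = 0.424, 0.120 to 0.878 over 22 alternatives) with ranges that overlapped. Collectrin itself was at 843 to 1047 FPKM over the 9 libraries, and its log2 difference was -0.03 in IgAN against WT and 0.17 in GQYS against IgAN.

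Slc1a1, the carrier for glutamate and aspartate, varied least among the described members, with a coefficient of variation of 5.27% over 9 libraries. Its FPKM was 86.4, 101 and 92.7 in WT, 89.0, 97.7 and 88.3 in IgAN and 93.3, 87.5 and 89.8 in GQYS. The log2 difference in IgAN against WT was -0.02, and its 95% interval of -0.24 to 0.19 bounds the size of any difference. Slc6a20a and Slc6a20b are close copies in the mouse, related to the human imino acid carrier, and counting could split reads between them. Slc6a20b was at 59.2, 91.3 and 88.3 FPKM in WT, 53.3, 87.1 and 69.8 in IgAN and 76.2, 78.3 and 67.8 in GQYS, and Slc6a20a ran from 3.56 to 8.75. Slc6a20b was lowest in the first replicates of IgAN and WT, and neither gene separated the groups. Slc36a2, a proton-coupled carrier for glycine and proline, reached 0.1 FPKM in only 2 libraries (0.458 in WT replicate 3 and 0.119 in IgAN replicate 1).

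On the basolateral side, 6 members were described and 5 tested. Slc7a7, the light chain that exports basic amino acids and is mutated in lysinuric protein intolerance, was at 35.7, 47.8 and 42.3 FPKM in WT, 34.4, 42.3 and 54.7 in IgAN and 50.6, 66.4 and 51.0 in GQYS. Every GQYS library lay above every WT library, with a log2 difference of 0.41 (SE 0.18, limma unadjusted p = 0.05, adjusted p = 0.999). Slc7a8, the light chain for neutral amino acids, was at 20.8, 19.8 and 30.2 FPKM in WT, 18.5, 22.3 and 27.8 in IgAN and 23.9, 28.0 and 28.7 in GQYS. Their shared heavy chain Slc3a2 was at 15.8, 15.0 and 19.9 FPKM in WT, 18.6, 17.2 and 21.9 in IgAN and 17.1, 20.2 and 20.3 in GQYS. The groups overlapped for both Slc7a8 and Slc3a2, and every log2 difference of either was at most 0.23 in size. Slc7a6, a further light chain, stayed between 0.246 and 0.517 FPKM.

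Slc38a3 had the largest log2 difference of the 34 tested members in GQYS against WT. This carrier brings glutamine into the cell from the blood side, where it feeds ammonia production. Its FPKM was 15.4, 18.3 and 21.9 in WT, 17.7, 22.6 and 7.24 in IgAN and 11.9, 6.64 and 8.24 in GQYS. The GQYS libraries all lay below the WT libraries, and IgAN spread over both ranges, with replicate 3 at the GQYS level. The log2 difference in GQYS against WT was -1.0 (SE 0.35, 95% interval -1.77 to -0.22, limma unadjusted p = 0.0171, adjusted p = 0.999), and over 22 alternatives the adjusted p ran from 0.0990 to 1.0. Slc43a2, which lets neutral amino acids out by facilitated diffusion, was between 12.2 and 26.5 FPKM in WT, 9.60 and 14.3 in IgAN and 14.3 and 20.4 in GQYS. Its log2 difference was -0.59 (SE 0.25, limma adjusted p = 0.435, 0.0186 to 0.781 over 22 alternatives) in IgAN against WT and 0.50 (SE 0.25, limma adjusted p = 0.557, 0.0344 to 0.918 over 22 alternatives) in GQYS against IgAN.

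**Figure D2:**
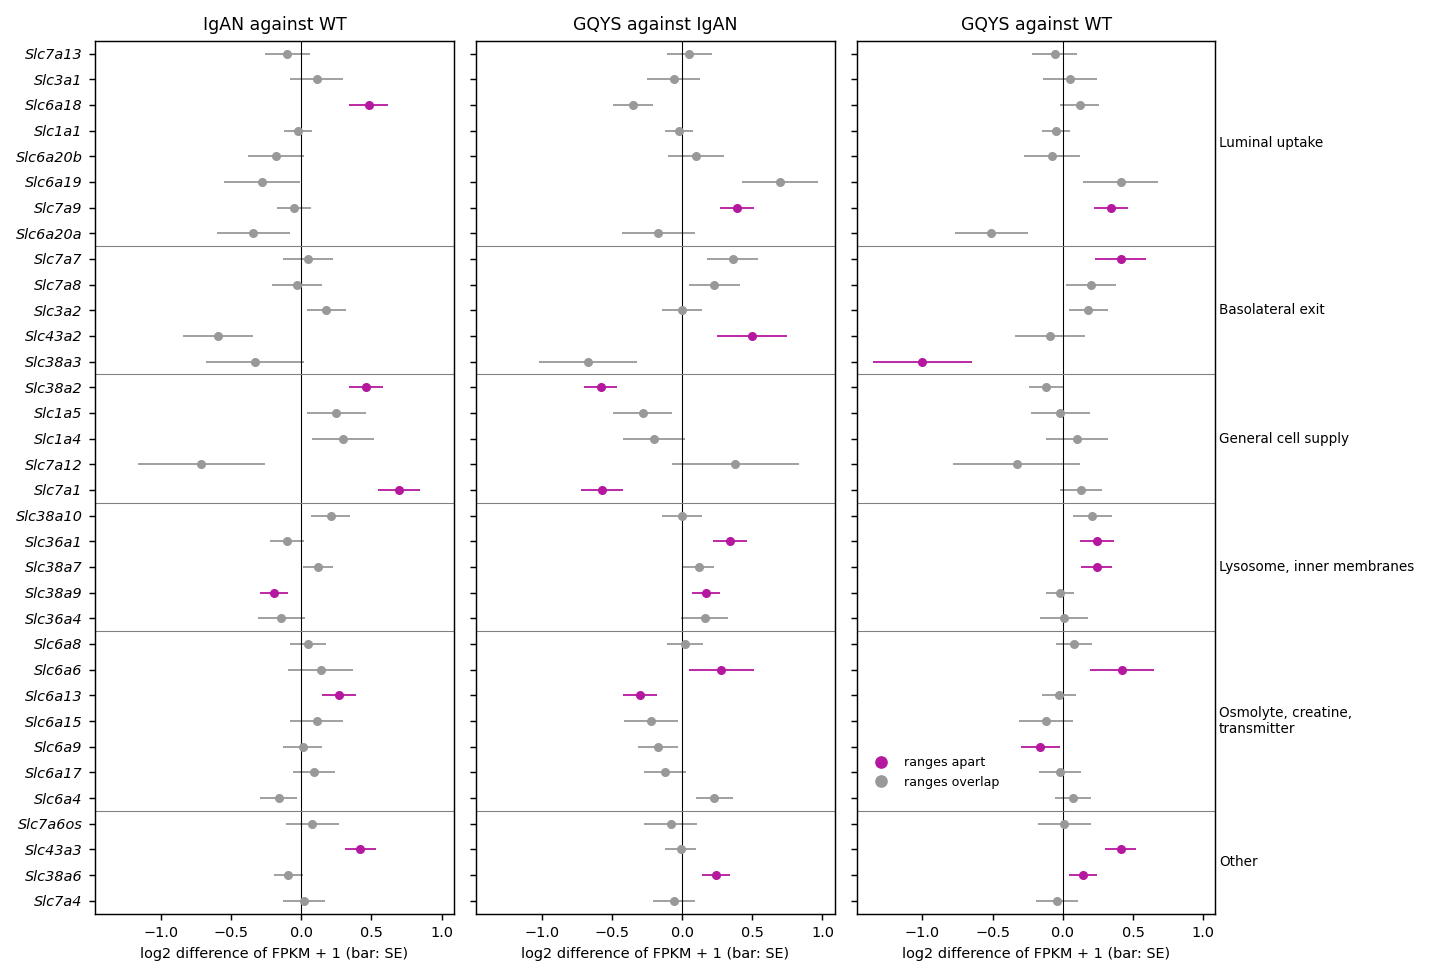
Log2 differences (log2 of FPKM + 1) of the 34 tested members in the 3 comparisons, ordered by role; points are limma estimates, bars their standard errors, and purple marks genes whose library values did not overlap between the groups. Slc7a1, Slc38a2 and Slc6a13 lie right of 0 in IgAN against WT and left of 0 in GQYS against IgAN, comparisons that share the IgAN libraries, and no point passes an adjusted p of 0.05.

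Among 10 described carriers that supply the cell itself, Slc7a1, Slc38a2 and Slc7a5 had their highest values in the IgAN libraries. Slc7a1, the general importer of arginine and lysine, was at 0.574, 1.1 and 1.09 FPKM in WT, 2.29, 2.33 and 1.70 in IgAN and 0.917, 1.37 and 1.0 in GQYS, from 149 to 591 reads per library. All IgAN values lay above all WT and all GQYS values. The ratio of group means was 2.29 in IgAN against WT and 0.520 in GQYS against IgAN. On the log2(FPKM + 1) scale, which understates changes at this level, the differences were 0.70 (SE 0.15, limma adjusted p = 0.104) and -0.57 (SE 0.15, limma adjusted p = 0.197). Over 22 alternatives the adjusted p ran from 0.0341 to 0.296 in IgAN against WT and from 0.0322 to 0.616 in GQYS against IgAN.

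Slc38a2, a sodium-coupled importer of small neutral amino acids that is induced when amino acids run short, had the smallest p of the 34 tested members in GQYS against IgAN. It stood at 20.9, 19.9 and 17.9 FPKM in WT, 31.2, 26.4 and 24.7 in IgAN and 15.9, 18.7 and 19.4 in GQYS. The IgAN libraries were again above both other groups without overlap, while WT and GQYS overlapped. Its log2 difference was 0.46 (SE 0.12, limma adjusted p = 0.178, 0.0352 to 0.442 over 22 alternatives) in IgAN against WT and -0.58 (SE 0.12, limma unadjusted p = 0.000797, adjusted p = 0.125, 0.0273 to 0.392 over 22 alternatives) in GQYS against IgAN.

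Slc7a5, the large neutral amino acid exchanger that pairs with Slc3a2 and serves leucine import in dividing cells, was below the level needed for the test above. Its FPKM was 0.437, 0.455 and 0.396 in WT, 1.41, 0.846 and 1.06 in IgAN and 0.323, 0.446 and 0.418 in GQYS, which rests on 43 to 61 reads in WT, 102 to 152 in IgAN and 38 to 59 in GQYS. IgAN stood apart from both other groups, with a ratio of means of 2.58 against WT and 0.357 for GQYS against IgAN. When the test was run down to 0.1 FPKM with voom on recovered reads, the log2 difference was 1.32 (SE 0.27, adjusted p = 0.0869) in IgAN against WT and -1.45 (SE 0.27, adjusted p = 0.0868) in GQYS against IgAN. Over 4 analyses that included the gene, the adjusted p ran from 0.0605 to 0.117 and from 0.0585 to 0.132. Slc7a11, the light chain of the cystine-glutamate exchanger, stayed at or under 0.0182 FPKM in all libraries and was at 0 in 3.

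The remaining supply carriers are given by their ranges over the 9 libraries. Slc1a5, a glutamine exchanger, spanned 9.43 to 18.2 FPKM with its highest value in IgAN replicate 1, and Slc1a4, for alanine, serine and cysteine, spanned 6.01 to 11.4. Slc7a12 varied most of all described members, 7.28-fold from 0.985 to 7.17 FPKM, with both its lowest and its highest value in groups carrying the Itgam-IRES-hCD89 allele (IgAN replicate 3 and GQYS replicate 1). Slc38a4, Slc7a2, Slc38a1 and Slc43a1 stayed between 0.130 and 1.15 FPKM.

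The promoters of Slc7a1 and Slc38a2 are shown because both had IgAN values above those of the other groups, and that of Slc7a11 because it holds the motif searched for and its gene was near 0. Each is the 250 bases before the RefSeq start on build GRCm38.p6, read 5′ to 3′ on the gene's own strand, which is the minus strand for all 3 genes. Capitals mark matches to TGATGNAAN on either strand, the composite site that ATF4 and C/EBP proteins bind in genes of the amino acid response. Slc7a1 (chr5:148399905-148400154, the first of 2 starts listed) and Slc38a2 (chr15:96699729-96699978) had 0 matches in these windows, and Slc7a11 (chr3:50443614-50443863) had 2, which begin 66 and 48 bases before the start.
Slc7a1: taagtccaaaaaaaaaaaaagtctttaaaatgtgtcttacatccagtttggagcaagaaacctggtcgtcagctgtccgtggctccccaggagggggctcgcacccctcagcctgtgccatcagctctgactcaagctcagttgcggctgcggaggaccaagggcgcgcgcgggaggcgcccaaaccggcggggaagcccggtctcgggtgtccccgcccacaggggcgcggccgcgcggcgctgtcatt
Slc38a2: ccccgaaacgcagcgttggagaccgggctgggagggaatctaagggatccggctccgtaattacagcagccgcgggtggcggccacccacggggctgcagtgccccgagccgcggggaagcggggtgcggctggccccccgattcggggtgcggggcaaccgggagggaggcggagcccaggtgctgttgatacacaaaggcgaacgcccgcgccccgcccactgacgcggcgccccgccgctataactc
Slc7a11: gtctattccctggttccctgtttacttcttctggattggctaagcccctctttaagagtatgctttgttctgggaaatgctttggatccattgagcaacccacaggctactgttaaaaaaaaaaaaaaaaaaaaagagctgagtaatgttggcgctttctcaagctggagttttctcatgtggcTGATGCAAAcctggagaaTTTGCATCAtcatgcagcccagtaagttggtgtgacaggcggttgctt
The motif occurred in 3.44% of 32851 promoter windows of this length. RefSeq windows matched 47 of the 65 members and 31 of the 44 described ones. These 31 had 50 windows, of which 2 (4%) held the motif, near the share of all windows. Both were windows of Slc7a7. Bases after the start were not searched, so a window without a match does not speak for the rest of the gene. Slc7a5 had no window in this set. A match is a description of the letters and not of binding.

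Other genes of the amino acid response were counted beside these carriers. A list of 27 ATF4 target and response genes was tested. Limma called 1 higher in IgAN than in WT (0.301% of all tested genes) and 0 lower (0.0516%). At an unadjusted p under 0.05, 13 were higher (6.97% of all tested genes) and 0 lower (3.37%). The median log2 difference was 0.31 (0.02 for all tested genes). The called gene was Chac1, which breaks down glutathione, at 0.380, 0.434 and 0.206 FPKM in WT, 1.29, 1.19 and 1.71 in IgAN and 0.494, 0.490 and 0.305 in GQYS. Chac1 reached 1 FPKM only in the 3 IgAN libraries and so entered the test through the group where it was high, which favoured this call. Its log2 difference was 0.84 (limma adjusted p = 0.0257, from 0.00475 to 0.114 over 22 alternatives). With a filter at 0.1 FPKM, which Chac1 passes in all groups, the limma adjusted p was 0.0166, and with voom on recovered reads at that filter 0.0613. Leaving out 1 library kept the call in 4 of 9 cases; it was lost without WT replicate 2 (0.0694), WT replicate 3 (0.0885), IgAN replicate 1 (0.0662), IgAN replicate 3 (0.114) or GQYS replicate 2 (0.0515). In GQYS against IgAN, 0 of the 27 were called. At an unadjusted p under 0.05, 11 were lower (4.9% of all tested genes) and 0 higher (5.53%), with a median of -0.29. Chac1 had a limma adjusted p of 0.0578 in this comparison (0.00520 to 0.327 over 22 alternatives, and 0.0449 without WT replicate 1). Asns, the asparagine synthetase gene, was at 0.845 to 1.61 FPKM in WT, 2.08 to 3.24 in IgAN and 1.12 to 2.0 in GQYS, and the regulator Atf4 itself was at 49.6 to 106 FPKM in WT, 62.7 to 101 in IgAN and 42.1 to 51.7 in GQYS. The IgAN and GQYS values of Asns and of Atf4 did not overlap, while those of WT and GQYS did.

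Several injury and leukocyte genes were also higher in the IgAN libraries. Of 8 tested injury genes, 6 were higher in IgAN than in WT at an unadjusted p under 0.05 (6.97% of all tested genes). Vcam1 was called (log2 difference 1.12, limma adjusted p = 0.0107), where 0.301% of all tested genes were called higher. In GQYS against IgAN, 8 of 8 had lower mean log2 values (48.4% of all tested genes), with a median of -1.04. Limma called 1 of them lower (0.164% of all tested genes). The summed FPKM of the list was 440 to 459 in WT, 554 to 1389 in IgAN and 409 to 576 in GQYS. Of 7 tested leukocyte genes, limma called the neutrophil genes S100a8 and S100a9 higher in IgAN than in WT (0.301% of all tested genes). In GQYS against IgAN, 7 of 7 had lower mean log2 values (48.4% of all tested genes), with a median of -0.45. Limma called 2 of them lower (0.164% of all tested genes). The summed FPKM of the list was 24.7 to 49.3 in WT, 64.2 to 84.6 in IgAN and 34.3 to 38.5 in GQYS. In IgAN against WT, 6 of the 7 had higher mean log2 values (54.7% of all tested genes) and 1 lower (45.3%). The median was 0.38, and 0.02 for all tested genes. The lower one was the pan-leukocyte gene Ptprc, with a log2 difference of -0.17. The part of these cells in the values of Slc7a1, Slc7a5 and Slc38a2 was not tested. Without WT and IgAN replicate 1 together, Slc7a1 had a log2 difference of 0.52 (limma adjusted p = 0.209) and Slc38a2 of 0.42 (limma adjusted p = 0.195) in IgAN against WT.

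**Figure D3:**
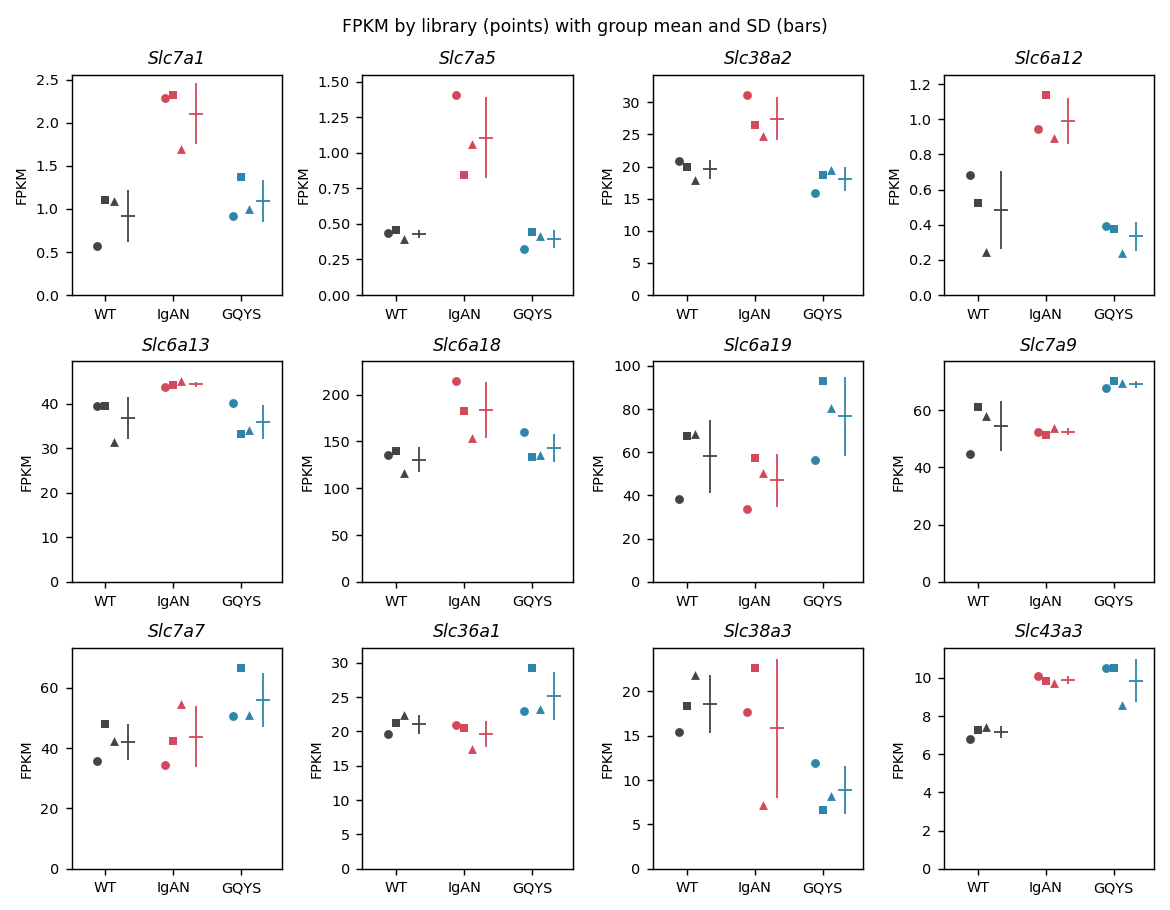
FPKM of 12 members in each library (points; linear axes from 0) with the group mean and SD (n = 3). In the top line of panels all IgAN values lie above all WT and GQYS values; for Slc7a9 the GQYS values of 67.7 to 70.0 lie above all others, and for Slc38a3 IgAN replicate 3 lies with GQYS.

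Carriers of the lysosome and other inner membranes were 5, all tested. Slc36a1, a proton-coupled exporter of small amino acids from lysosomes, was at 19.6, 21.2 and 22.4 FPKM in WT, 20.9, 20.5 and 17.4 in IgAN and 23.0, 29.2 and 23.3 in GQYS. The GQYS libraries lay above both other groups without overlap, with a log2 difference of 0.34 (SE 0.12, limma adjusted p = 0.367) against IgAN. Slc38a7, which releases glutamine from lysosomes, was at 5.07, 6.32 and 5.79 FPKM in WT, 6.10, 6.21 and 6.57 in IgAN and 7.42, 6.90 and 6.54 in GQYS. Only WT and GQYS were without overlap for Slc38a7, by a log2 difference of 0.24 (SE 0.11, limma unadjusted p = 0.0441, adjusted p = 0.999). Slc38a9, the arginine sensor that reports lysosomal amino acids to mTORC1, was at 1.62 to 2.0 FPKM in WT, 1.27 to 1.54 in IgAN and 1.64 to 1.88 in GQYS, a log2 difference of -0.19 (SE 0.10, limma adjusted p = 0.604) in IgAN against WT. Slc38a10 (20 to 31.3 FPKM) and Slc36a4 (1.18 to 2.31) overlapped between all groups. Of 24 tested genes of mTORC1 and its amino acid sensing branch, limma called 0 in each comparison. An unadjusted p under 0.05 was found for 0 in IgAN against WT (10.3% of all tested genes). It was found for 0 in GQYS against IgAN (10.4%) and 1 in GQYS against WT (4.43%).

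Carriers of osmolytes, creatine and transmitters were 10, of which 7 were tested. Slc6a8, the creatine carrier, was level over the groups at 44.2, 51.1 and 57.3 FPKM in WT, 52.5, 48.5 and 56.8 in IgAN and 47.3, 62.2 and 51.7 in GQYS. The taurine carrier Slc6a6 was at 25.8, 50.1 and 52.3 FPKM in WT, 38.4, 50.5 and 47.0 in IgAN and 58.0, 54.6 and 52.6 in GQYS. All GQYS values were above the others for Slc6a6, and WT replicate 1 was far below all other libraries. The log2 difference in GQYS against WT went from 0.42 (limma adjusted p = 0.999) to 0.10 without WT and IgAN replicate 1.

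Slc6a13, a basolateral carrier of GABA and taurine in the proximal tubule, was at 39.4, 39.5 and 31.4 FPKM in WT, 43.8, 44.2 and 45 in IgAN and 40.2, 33.2 and 34.2 in GQYS. The 3 IgAN libraries lay close together and above all others, with log2 differences of 0.27 (SE 0.12, limma adjusted p = 0.460) in IgAN against WT and -0.30 (SE 0.12, limma adjusted p = 0.403) in GQYS against IgAN. Slc6a12, the betaine carrier of the medulla and a target of the osmotic factor Nfat5, was too low for that test. It was at 0.680, 0.524 and 0.244 FPKM in WT, 0.943, 1.14 and 0.892 in IgAN and 0.391, 0.374 and 0.241 in GQYS, and IgAN lay above both other groups. With voom on recovered reads down to 0.1 FPKM, its log2 difference was 1.12 (SE 0.34, adjusted p = 0.258) in IgAN against WT and -1.56 (SE 0.37, adjusted p = 0.153) in GQYS against IgAN; over 4 analyses these adjusted p ran from 0.172 to 0.289 and from 0.101 to 0.175.

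The other osmolyte carrier of that response, Slc5a3 for myo-inositol, is no member and also had its highest values in IgAN: 15.3, 15.4 and 15.6 FPKM in WT, 26.7, 33.3 and 28.6 in IgAN and 13.2, 21.5 and 15.9 in GQYS. Its log2 difference was 0.89 (limma adjusted p = 0.0600, 0.00559 to 0.192 over 22 alternatives) in IgAN against WT and -0.80 (limma adjusted p = 0.106, 0.00745 to 0.429 over 22 alternatives) in GQYS against IgAN. The first passed without GQYS replicate 1 (0.0454) or GQYS replicate 2 (0.0316), and the second without GQYS replicate 2 (0.0476). Of 5 tested osmotic response genes, limma called 0 in each comparison. At an unadjusted p under 0.05, 2 were higher in IgAN than WT (6.97% of all tested genes) and 2 lower in GQYS than IgAN (4.9%). Nfat5 was at 3.14 to 5.18 FPKM with a log2 difference of -0.05 in IgAN against WT, and the collecting duct gene Aqp2, picked after its values were seen, was at 78.6 to 106 in WT, 104 to 174 in IgAN and 74.4 to 95.1 in GQYS. The 7 collecting duct markers as a list had median log2 differences of 0.07 in IgAN against WT and -0.03 in GQYS against IgAN, with 1 higher and 1 lower at an unadjusted p under 0.05 in turn. Their summed FPKM was 236 to 265 in WT, 268 to 364 in IgAN and 240 to 258 in GQYS. The 4 thick ascending limb markers had medians of -0.16 and -0.08, with summed FPKM of 1261 to 2252, 1579 to 2339 and 1490 to 1662; limma called 0 of either list. The part of a differing share of medulla in the tissue was not tested.

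Transmitter carriers were low and overlapped in nearly all comparisons. Slc6a15 (7.76 to 14.2 FPKM) and Slc6a17 (1.73 to 3.10) carry branched-chain and other neutral amino acids, Slc6a9 (5.60 to 8.66) carries glycine, and Slc6a4 (1.07 to 2.02) serotonin. Slc6a9 was the exception, with GQYS below WT without overlap by a log2 difference of -0.16 (SE 0.14). The glutamate carriers Slc1a2 and Slc1a3 stayed between 0.102 and 0.482 FPKM.

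Slc43a3, the nucleobase carrier, was the member that set WT apart from both groups of Itgam-IRES-hCD89 mice. It was at 6.78, 7.29 and 7.41 FPKM in WT, 10.1, 9.83 and 9.73 in IgAN and 10.5, 10.5 and 8.56 in GQYS. No WT library reached any of the others, with log2 differences of 0.42 (SE 0.11, limma adjusted p = 0.162, 0.0455 to 0.391 over 22 alternatives) in IgAN against WT and 0.41 (SE 0.11, limma adjusted p = 0.678, 0.0933 to 1.0 over 22 alternatives) in GQYS against WT, which share the WT libraries. GQYS against IgAN gave -0.01, with a 95% interval of -0.24 to 0.23. Slc38a6 was at 1.57 to 2.05 FPKM in WT, 1.62 to 1.76 in IgAN and 2.07 to 2.30 in GQYS, Slc7a4 spanned 0.819 to 1.47 and Slc38a11 0.0706 to 0.225. Slc7a6os was at 9.27 to 15.7 FPKM, far above Slc7a6; the strand setting of the counting is not known here, and reads of overlapping genes on opposite strands cannot be told apart.

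Members were also counted by whether the library values of the groups overlapped. In IgAN against WT, 6 did not overlap, 17.6% of members against 14% of all tested genes; 5 were higher in IgAN (9.18% of all tested genes) and 1 lower (4.8%). In GQYS against IgAN, 9 did not overlap (26.5%, against 19.1%), 6 higher in GQYS (9.84%) and 3 lower (9.29%). In GQYS against WT the count was 9 (26.5%, against 9.74%), 7 higher (7.14%) and 2 lower (2.61%). By role, the 5 tested supply carriers had a median log2 difference of 0.30 in IgAN against WT and -0.28 in GQYS against IgAN, and the 5 lysosomal and inner membrane carriers -0.10 and 0.16. The 8 luminal carriers had medians of -0.08 and 0.01, and the 5 basolateral ones -0.03 and 0.23.

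**Figure D4:**
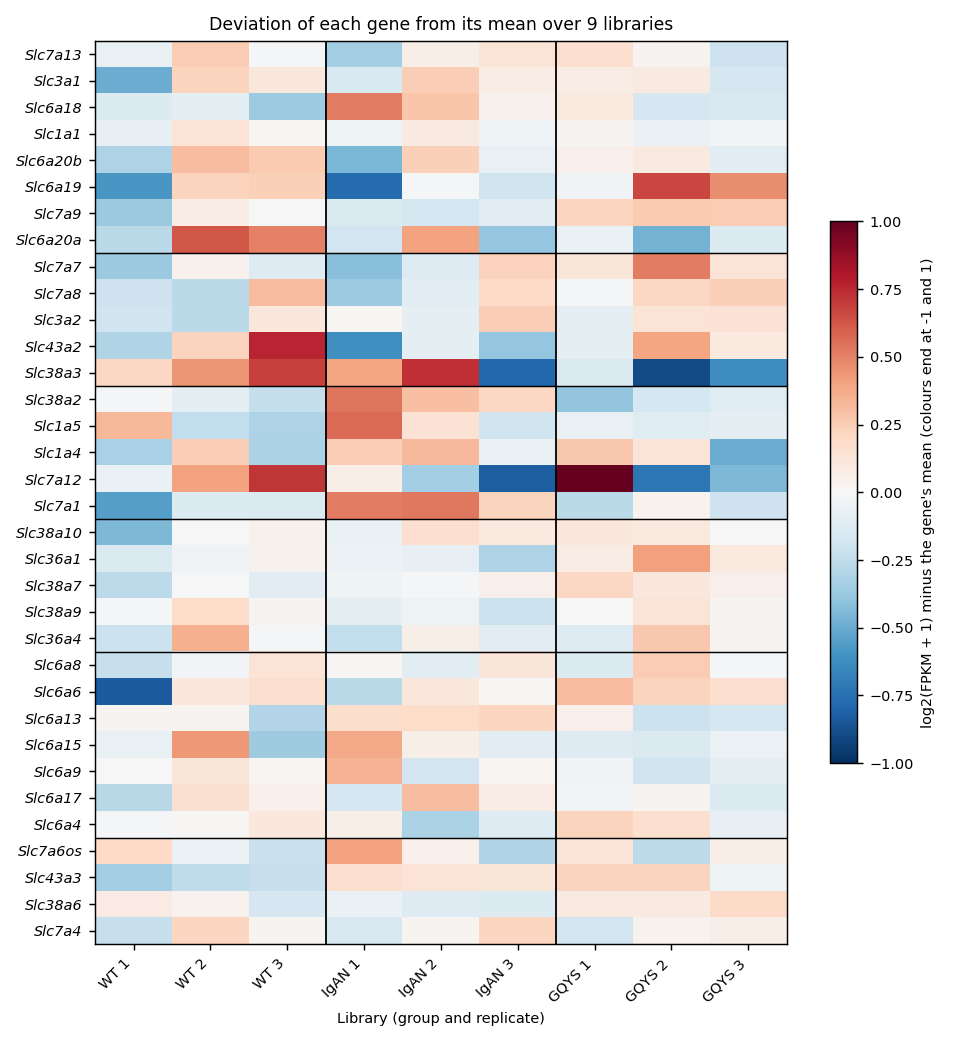
Deviation of log2(FPKM + 1) from the gene's mean over 9 libraries for the 34 tested members, by library; black lines part the groups and roles, and colours end at -1 and 1. WT replicate 1 is blue in many lines, the lowest of 9 for 11 members, while Slc38a2 and Slc7a1 are red in all 3 IgAN libraries.

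Further partners and companions of these carriers were counted as a list. Slc16a10, the basolateral carrier of aromatic amino acids, was at 6.0 to 10.2 FPKM. The peptide carrier Slc15a2 was at 13.4 to 23.7 FPKM and Slc15a1 at 0.0091 to 0.170. The brush border enzymes that free amino acids from peptides and glutathione were at 32.9 to 42.4 FPKM (Anpep), 438 to 551 (Ggt1) and 52.9 to 85.7 (Dpep1). Limma called 0 of 7 tested genes of this list in each comparison. Only Dpep1 had an unadjusted p under 0.05, in GQYS against IgAN (log2 difference 0.33, limma adjusted p = 0.432). All tested genes at that p were 10.3% in IgAN against WT, 10.4% in GQYS against IgAN and 4.43% in GQYS against WT.

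Of 8 regulators of amino acid transport, limma called 0 in each comparison. At an unadjusted p under 0.05, 3 were higher and 0 lower in IgAN against WT (10.3% of all tested genes in either direction), 2 higher and 3 lower in GQYS against IgAN (10.4%) and 2 higher and 0 lower in GQYS against WT (4.43%). In GQYS against IgAN, library values did not overlap for 2 that were higher (9.84% of all tested genes) and 5 that were lower (9.29%). The genes named next, Sgk1 and Nedd4l, were both among the lower ones and were picked after their values were seen. Sgk1, a kinase that keeps carriers at the membrane, was at 14.0 to 19.8 FPKM in WT, 18.4 to 38.2 in IgAN and 12.3 to 16.5 in GQYS, and Nedd4l, the ubiquitin ligase that removes them, at 4.20 to 4.37, 5.72 to 6.80 and 4.29 to 4.84.

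The 21 members below the level of description were led by Slc36a2, Slc6a14 (at most 0.162 FPKM), Slc7a3 (at most 0.104) and Slc6a19os (at most 0.224), each at or above 0.1 in 1 or 2 libraries. Slc38a8 and Slc6a21 were listed at 0 in all 9 libraries. The brain carriers Slc6a11 and Slc6a2 had a value above 0 in 1 library each.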

How the data were processed

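Kidney RNA was isolated with TRIzol and sequenced from VAHTS Universal V6 preparations, as stated per the labels' protocols. What the authors deposited was a single FPKM table that covers 26139 symbols and 9 libraries. Build GRCm39 and the tools R 3.2.0, DESeq2, HTSeq, HISAT2 and fastp appear in the submitters' processing notes, with no roles; the annotation and strand setting were not given in the sources used here. Since FPKM corrects for gene length and library depth alone, very abundant genes can move every other value. FPKM values moved in steps, from which whole reads were recovered for 26139 genes within 0.03 reads, giving 30564947 to 38161564 reads per library. Replicates of a group differed far beyond sampling noise (chi-square per gene 18.9 to 203), so none was merged.

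Groups and replicate numbers came from the labels. The test was limma 3.58.1 in R 4.3.3 (empirical Bayes with a trend in the mean) on log2(FPKM + 1), 1 fit over 9 libraries, 11617 genes with at least 1 FPKM in at least 3 libraries, 2-sided, with Benjamini-Hochberg adjustment over all of them and a threshold of 0.05. It was tested on simulated data of these genes. Alternatives changed the pseudocount, filter, scaling, libraries, weights and covariates, or used voom on recovered reads; the analyses that join a filter at 0.1 FPKM with voom or with a pseudocount of 0.1 were chosen after seeing the data. Members, roles and gene lists were chosen with earlier results of these data known. Values in every library are given for the 5 members per comparison with the smallest p and no overlap of groups, the 10 members with the highest mean and the heterodimer genes; other members were named by range, and those given with statistics beyond this rule (Slc43a2, Slc6a12, Slc38a9, Slc6a9) were chosen after their values were seen, as were Slc5a3 and the named injury, leukocyte and regulator genes. Promoters came from RefSeq tables on GRCm38.p6, not the build of the files, so no coordinate was joined to the expression table. Replicate numbers were not taken as pairs, since only 6 of 9 same-numbered pairs of libraries deviated together (correlation over 0.1) and the labels state no shared batch. Some genes of the families and lists are not reported here.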

Additional observations from a re-analysis of the deposited data

How the results depend on the processing

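No member was called in IgAN against WT, in GQYS against IgAN or in GQYS against WT when any 1 library was left out (range 0 to 0 in each), nor with a pseudocount of 0.1, a filter at 0.1 FPKM, no filter, upper-quartile scaling, quantile normalization, only the compared groups, or voom. With library quality weights, which gave WT replicate 1 a weight of 0.171, 5 members were called in IgAN against WT (Slc38a2, Slc43a2, Slc43a3, Slc6a20a, Slc7a1) and 3 in GQYS against IgAN (Slc38a2, Slc7a1, Slc7a9). With the mitochondrial share of reads as a term the counts were 4 (Slc38a2, Slc43a2, Slc43a3, Slc7a1) and 5 (Slc38a2, Slc43a2, Slc6a19, Slc6a6, Slc7a9). These analyses called 655 and 732 of all genes in IgAN against WT, against 41 in the main analysis, and 404 and 371 against 23 in GQYS against IgAN; the weights called 53 against 0 in GQYS against WT; the cause was not tested. With the replicate number as a block, 1 member was called in GQYS against IgAN (Slc6a19, adjusted p = 0.0295) and 68 genes in all in IgAN against WT; the libraries share only a number, and 4 of 9 correlated best with their own. All-gene counts were also 21 without a filter and 11 with only the compared groups in IgAN against WT, and 13, 43 and, with a pseudocount of 0.1, 15 in GQYS against IgAN. Leaving out 1 library gave 14 to 65 and 6 to 54, and leaving out WT and IgAN replicate 1 gave 63 in the latter. Values of members under alternatives were counted as kept if direction and side of the threshold stayed. For Slc7a5 and Slc6a12, outside the main test, kept meant within 1 within-group SD of the log2(FPKM + 1) difference, and moved meant beyond it. Of 464 values, 432 were kept, 13 passed the threshold and 7 turned sign. The other 12, all of Slc7a5 or Slc6a12 at another pseudocount or by voom, moved. The turned ones were near 0: Slc7a13 in IgAN against WT without IgAN replicate 1 (0.04), Slc7a9 without WT replicate 2 (0.04) or WT replicate 3 (0.00), and Slc7a13 in GQYS against IgAN with quality weights (-0.11), without IgAN replicate 1 (-0.10), without GQYS replicate 1 (-0.04) and without WT and IgAN replicate 1 (-0.10). Over all libraries left out in turn, these ran from -0.20 to 0.04, from -0.18 to 0.04 and from -0.10 to 0.15. With 3 libraries a group an exact permutation test of 1 gene cannot go below p = 0.1, and depth limits Slc7a5 and Slc6a12, which rest on 23 to 152 reads per library.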

Other observations

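The balance between the neutral carriers Slc6a18 and Slc6a19 was looked at after their values were seen. The FPKM of Slc6a18 divided by that of Slc6a19 was 3.55, 2.07 and 1.70 in WT, 6.38, 3.18 and 3.06 in IgAN and 2.83, 1.43 and 1.68 in GQYS. IgAN and GQYS did not overlap in this ratio, while WT overlapped both, and the first replicate was the highest of its group in all 3. The ratio of Slc7a9 to its heavy chain Slc3a1 was 0.227, 0.189 and 0.192 in WT, 0.209, 0.156 and 0.183 in IgAN and 0.232, 0.237 and 0.281 in GQYS, with GQYS above the others, and that of Slc7a13 to Slc3a1 ran from 1.65 to 2.53 with overlapping groups. On the basolateral side, Slc7a7 and Slc7a8 together stood at 2.85 to 4.68 times the FPKM of Slc3a2. These ratios were chosen with the values in view and were given no test.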
